A study of Mus musculus with 12 samples.

Results

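ATF4 amino acid and endoplasmic reticulum (ER) stress genes are 36 genes that encode ATF4 itself, partner and downstream transcription factors, stress effectors, enzymes and carriers that make or import amino acids, aminoacyl-tRNA synthetases and ER folding factors. They were chosen by name, and each array probe was assigned to them through its RefSeq accession. A probe was found for 35 of the 36, among 24184 genes and transcripts tested in all. For Pycr1, a proline synthesis enzyme, only the promoter was examined. All 35 were well above background on all 12 arrays, so none entered through the filter on dim probes.

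ATF4 is a transcription factor made when the translation factor eIF2 is phosphorylated. The kinases that do this respond to amino acid lack (GCN2, gene Eif2ak4), misfolded protein in the ER (PERK, Eif2ak3), double-stranded RNA (PKR, Eif2ak2) and heme lack (HRI, Eif2ak1). ATF4 is controlled largely through translation of its mRNA, and it acts with C/EBP partners on genes for amino acid synthesis, uptake and tRNA charging. The unfolded protein response adds further branches, through IRE1 with XBP1 and through ATF6, which raise chaperones such as BiP (Hspa5).

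RNA came from DKO172, a line from a mouse fallopian tumor, on 12 one-colour Agilent arrays, 3 in each of 4 groups. Cells of the 4 groups received 2 µg of a hygromycin-resistance plasmid whose insert was wild-type DICER1 (WT), its D1709N or G1809R form or, as control, GFP, were moved to new plates after 24 hours and stood 84 hours in 300 µg/ml hygromycin, so that RNA was taken 108 hours after transfection. DICER1 cuts microRNA precursors, and D1709N and G1809R are hotspot changes in its RNase IIIb domain; the labels do not state the line's genotype, which all 4 groups share. All groups come from 1 line after transient transfection and drug selection, and nothing says whether the 3 arrays of a group were separate cultures, so p-values measure the spread between these arrays, which may be technical.

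One slide carried replicate 1 of each group and another replicates 2 and 3, and arrays of the same replicate number deviated together from their group means. Every comparison was therefore fitted with limma both without and with the replicate number as a block, each with Benjamini-Hochberg adjustment over all 24184 genes and a two-sided threshold of 0.05. The fit without the block was the main one, and the replicate block was an alternative to it. The share of probes well above background ran from 49.5% to 82.7% per array, and WT replicate 1, at 82.7%, stood furthest from its group (r of 0.958 to 0.961 with the other WT arrays, against 0.962 to 0.992 for other same-group pairs). Of the epithelial markers Krt8, Krt18 and Krt19 were strong, with summed levels of the 7 markers of 225 to 384 in WT, 350 to 497 in D1709N, 270 to 474 in G1809R and 260 to 417 in GFP, whereas Epcam, Cdh1 and Pax8 were above background on only some arrays; these sums are in multiples of each array's 75th percentile. Of 6 endothelial markers 2 were above background on all arrays, Tek on some, and Cdh5, Tie1 and Emcn on none, with sums of 15.3 to 25.4 in WT, 10.0 to 19.1 in D1709N, 10.2 to 18.9 in G1809R and 14.7 to 26.1 in GFP. With the block 1 of the 2 tested was lower in each mutant against GFP and against WT. Of all genes 2.49% (D1709N) and 1.98% (G1809R) were lower against GFP, and 8.42% and 6.31% against WT. Summed leukocyte markers lay between 14.0 and 27.0 in all groups.

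Promoters of the genes are shown because ATF4 with a C/EBP partner binds a composite element whose core letters can be searched. RefSeq windows of mouse build GRCm38.p6, from 250 bases before to 50 bases after the start site, were available for 32 of the 36 genes. Some genes have several start sites and so several windows (32851 windows for 27025 genes), and a gene counted if any of its windows matched. The letters TGATGNAA, on either strand, stood in a window of 12 of the 32 genes (37.5%), against 4.51% of the 27025 genes. Those 12 genes were Atf3, Nupr1, Trib3, Chac1, Vldlr, Asns, Pycr1, Slc7a11, Slc1a4, Aars, Gars and Herpud1. Whole windows follow for Trib3, the member that changed most, for Asns, the classical amino acid response gene, and for Fgf21, a secreted ATF4 target outside the 36, with the matched letters in capitals:
Trib3 (chr2:152344011-152344310, minus strand): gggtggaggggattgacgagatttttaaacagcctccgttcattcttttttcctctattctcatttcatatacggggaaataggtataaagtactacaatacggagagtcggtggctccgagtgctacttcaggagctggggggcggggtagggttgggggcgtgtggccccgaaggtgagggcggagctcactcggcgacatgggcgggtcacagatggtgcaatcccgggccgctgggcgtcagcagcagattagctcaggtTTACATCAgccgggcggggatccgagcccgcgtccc
Asns (chr6:7693160-7693459, minus strand): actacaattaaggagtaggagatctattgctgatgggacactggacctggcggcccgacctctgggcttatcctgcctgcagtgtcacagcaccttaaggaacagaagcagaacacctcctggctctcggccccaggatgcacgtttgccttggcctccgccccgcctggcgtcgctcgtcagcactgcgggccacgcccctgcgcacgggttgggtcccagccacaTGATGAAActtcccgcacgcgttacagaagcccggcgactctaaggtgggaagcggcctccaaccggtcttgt
Fgf21 (chr7:45615441-45615740, minus strand): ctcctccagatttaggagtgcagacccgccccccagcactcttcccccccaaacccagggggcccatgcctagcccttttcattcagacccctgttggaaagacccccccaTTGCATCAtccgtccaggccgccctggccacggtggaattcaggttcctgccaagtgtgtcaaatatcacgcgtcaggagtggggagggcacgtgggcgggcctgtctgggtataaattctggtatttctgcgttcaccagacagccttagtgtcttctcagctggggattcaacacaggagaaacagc
The match began 15 bases after the start site in Trib3, 23 bases before it in Asns and 139 bases before it in Fgf21.

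Shorter stretches show the same letters in other members whose levels are described below:
Atf3 (chr1:191183410-191183469, minus strand): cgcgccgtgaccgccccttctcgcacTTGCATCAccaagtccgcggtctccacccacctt
Nupr1 (chr7:126625547-126625606, minus strand): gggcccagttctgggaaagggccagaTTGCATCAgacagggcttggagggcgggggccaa
Chac1 (chr2:119351023-119351082, plus strand): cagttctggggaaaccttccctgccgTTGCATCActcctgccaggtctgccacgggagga
Aars (chr8:111033704-111033763, plus strand): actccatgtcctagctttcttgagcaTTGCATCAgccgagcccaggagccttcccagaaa
Slc7a11 (chr3:50443627-50443686, minus strand): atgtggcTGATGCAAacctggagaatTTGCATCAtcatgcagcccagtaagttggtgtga
The Atf3 and Nupr1 matches both began 110 bases before the start site, that of Chac1 193 bases before it, and that of Aars 112 bases before it. Slc7a11 held a pair of matches in opposite orientation, 66 and 47 bases before the start site of its window. The Slc7a11 and Aars stretches belong to start sites inside the listed gene spans (chr3:50364936-50499087 and chr8:111027778-111055569), not at their outer ends. A second search, for the ER stress response element as CCAAT, then 9 bases, then CCACG, on either strand, found 1 member, Hspa5 (3.12% of the 32 genes, against 0.137% of all genes), shown for that reason:
Hspa5 (chr2:34771840-34772139, plus strand): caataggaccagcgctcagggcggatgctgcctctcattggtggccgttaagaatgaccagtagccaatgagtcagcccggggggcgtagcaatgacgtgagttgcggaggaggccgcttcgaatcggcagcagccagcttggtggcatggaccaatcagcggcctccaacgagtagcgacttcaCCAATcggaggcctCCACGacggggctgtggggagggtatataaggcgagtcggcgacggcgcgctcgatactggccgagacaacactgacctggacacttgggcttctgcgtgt
That match began 65 bases before the start of Hspa5. The letters TGACGTGG, an element bound by ATF6 and XBP1, stood in no window of the 32 genes and in 0.714% of all genes. A match is only a run of letters, and its absence says only that these letters are not in this window.

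Levels below are log2 signals over each array's own 75th percentile, so that 0 is that percentile and 1 more is a doubling, and differences are log2 with the first-named group on top. They can be compared between groups for 1 gene, and not between genes. WT against GFP asks what the genes do when active DICER1 is supplied. In the fit with the block, WT cells held more mRNA than GFP cells of the pseudokinase Trib3 (2.5-fold), of Ddit3 (1.67-fold) and Atf5 (1.62-fold), of the arginine carrier Slc7a3 (1.62-fold) and of the proline enzyme Aldh18a1 (1.53-fold), and less of the sestrin Sesn2, while Atf4 mRNA and the ER chaperones did not pass. Without the block, 0 of the 35 passed in this comparison, where 2.95% of all genes did; 8 had an unadjusted p under 0.05, and the lowest adjusted p was 0.0818, of Aldh18a1. With the replicate block 13 of the 35 rose (37.1%), against 9.18% of all genes higher, and 1 fell (2.86%), against 8.6% of all genes lower. The median difference of the 35 was 0.26, against 0.04 over all genes, with 24 above 0, and within replicate numbers 1, 2 and 3 the median of the 35 was 0.18, 0.12 and 0.28. The blocked fit called 5 genes without GFP replicate 1, 4 without GFP replicate 3 and 8 without WT replicate 1 or WT replicate 3, in place of 14. With the slide as the block it called 7: Ddit3, Trib3, Aldh18a1, Slc7a3, Slc7a5, Slc3a2 and Slc6a9.

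**Figure D1:**
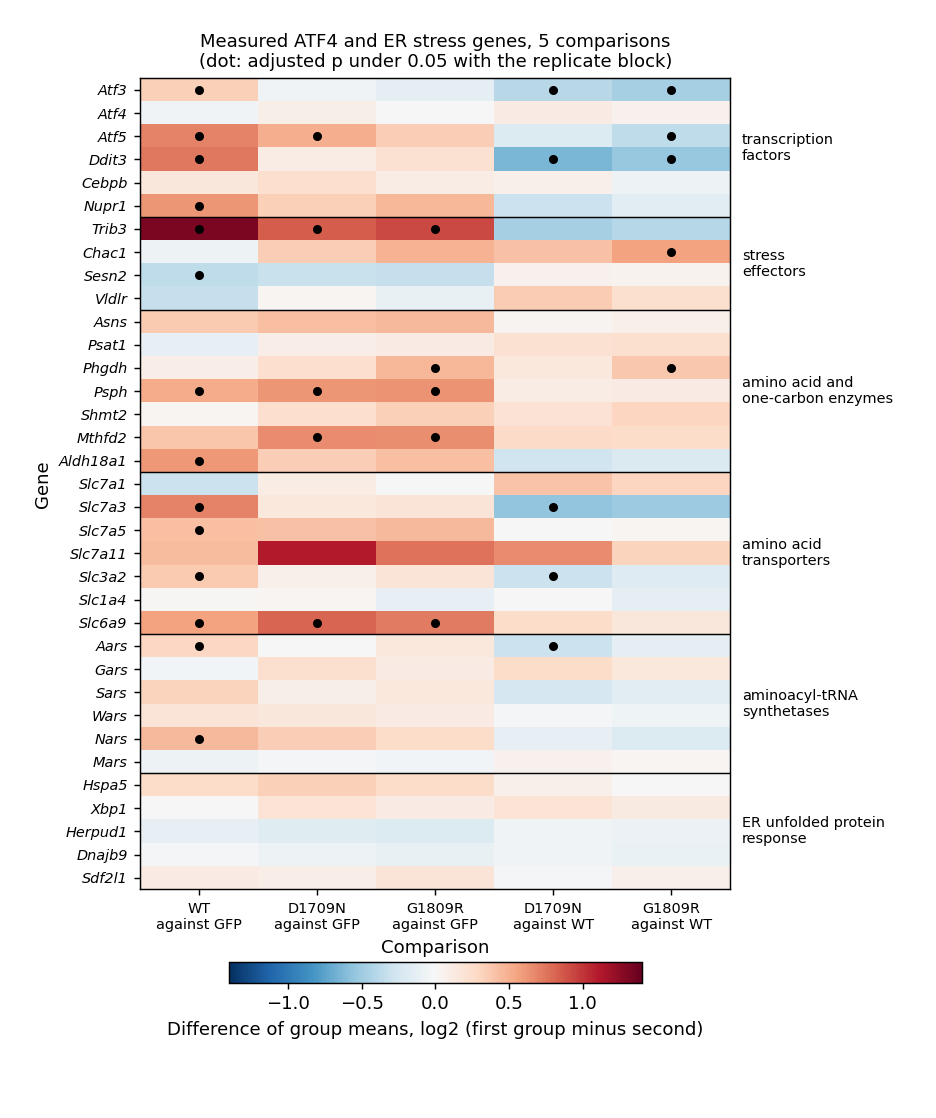
Difference of group means (colour, log2) for the 35 measured genes (rows, by role) in 5 comparisons (columns); dots mark an adjusted p under 0.05 in the limma fit with the replicate block. The first column holds 14 dots, and Trib3, Psph and Slc6a9 have dots in all 3 columns against GFP, which share the 3 GFP arrays.

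Among the transcription factors 4 of 6 rose with WT in the fit with the block, namely Atf3, Atf5, Ddit3 and Nupr1, while the mRNA of Atf4 itself passed in neither fit. Ddit3 encodes CHOP, a stress factor tied to cell death, and stood at 3.38, 4.04 and 3.99 in WT, 2.92, 3.49 and 3.08 in D1709N, 2.86, 3.69 and 3.28 in G1809R and 2.79, 3.39 and 3.00 in GFP. The lowest WT array was just below the highest GFP array, yet WT was above GFP within every replicate number, by 0.59, 0.64 and 0.99. The difference of 0.74 (1.67-fold) had an SE of 0.27 and an adjusted p of 0.201 in limma without the block, and an SE of 0.10 and an adjusted p of 0.00257 with it; with the slide as the block it was 0.0236.

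Atf5, a close relative of Atf4 that is also translated under eIF2 phosphorylation, measured 5.57, 5.92 and 5.57 in WT, 5.19, 5.88 and 5.40 in D1709N, 4.99, 5.81 and 5.18 in G1809R and 4.68, 5.39 and 4.89 in GFP. All WT arrays were above all GFP arrays, and within each replicate number the mutants lay in between. WT exceeded GFP by 0.70 (1.62-fold; adjusted p 0.232 without and 0.00209 with the block, limma), and, like that of Ddit3, this call was kept in all 12 blocked fits that left out 1 array, with adjusted p no higher than 0.0168 for Ddit3 and 0.0132 for Atf5. With the slide as the block the Atf5 call was lost (0.071).

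Nupr1, a small chromatin-bound stress factor, reached 3.32, 4.0 and 3.92 in WT, 2.97, 3.88 and 3.5 in D1709N, 2.86, 4.22 and 3.67 in G1809R and 2.53, 3.69 and 3.14 in GFP. Replicate 1 was the lowest array of each group, and the groups overlapped. WT was 0.62 above GFP (1.54-fold; limma adjusted p 0.566 without and 0.0109 with the block), a call lost without GFP replicate 3 (0.0541) and with the slide as the block (0.0792).

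Atf3, a repressor of the same family that CHOP and ATF4 induce, gave 3.13, 3.00 and 3.32 in WT, 2.57, 2.69 and 3.03 in D1709N, 2.50, 2.65 and 2.89 in G1809R and 2.54, 2.78 and 3.14 in GFP. WT was the highest group within each replicate number. The rise of 0.33 over GFP (1.26-fold) passed in the full blocked fit (adjusted p 0.0404; 0.484 without the block), but in none of the 12 limma fits with the block that left out 1 array, whichever array that was (0.0511 to 0.156), nor with normexp background correction.

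For Atf4 the arrays read 7.77, 7.84 and 7.89 in WT, 7.73, 8.21 and 7.93 in D1709N, 7.54, 8.23 and 7.90 in G1809R and 7.77, 7.99 and 7.88 in GFP. The 4 groups overlapped. Differences from GFP were -0.05 for WT, 0.08 for D1709N and 0.01 for G1809R, each with an SE of 0.18, and with the block the adjusted p was 0.814, 0.738 and 0.968; the signs of both mutant differences turned under other scalings and over the mean of the probes, and that of WT in some fits without 1 array. Cebpb, a C/EBP partner, differed by 0.16 (WT), 0.24 (D1709N) and 0.10 (G1809R) from GFP and passed in no fit with or without the block.

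**Figure D2:**
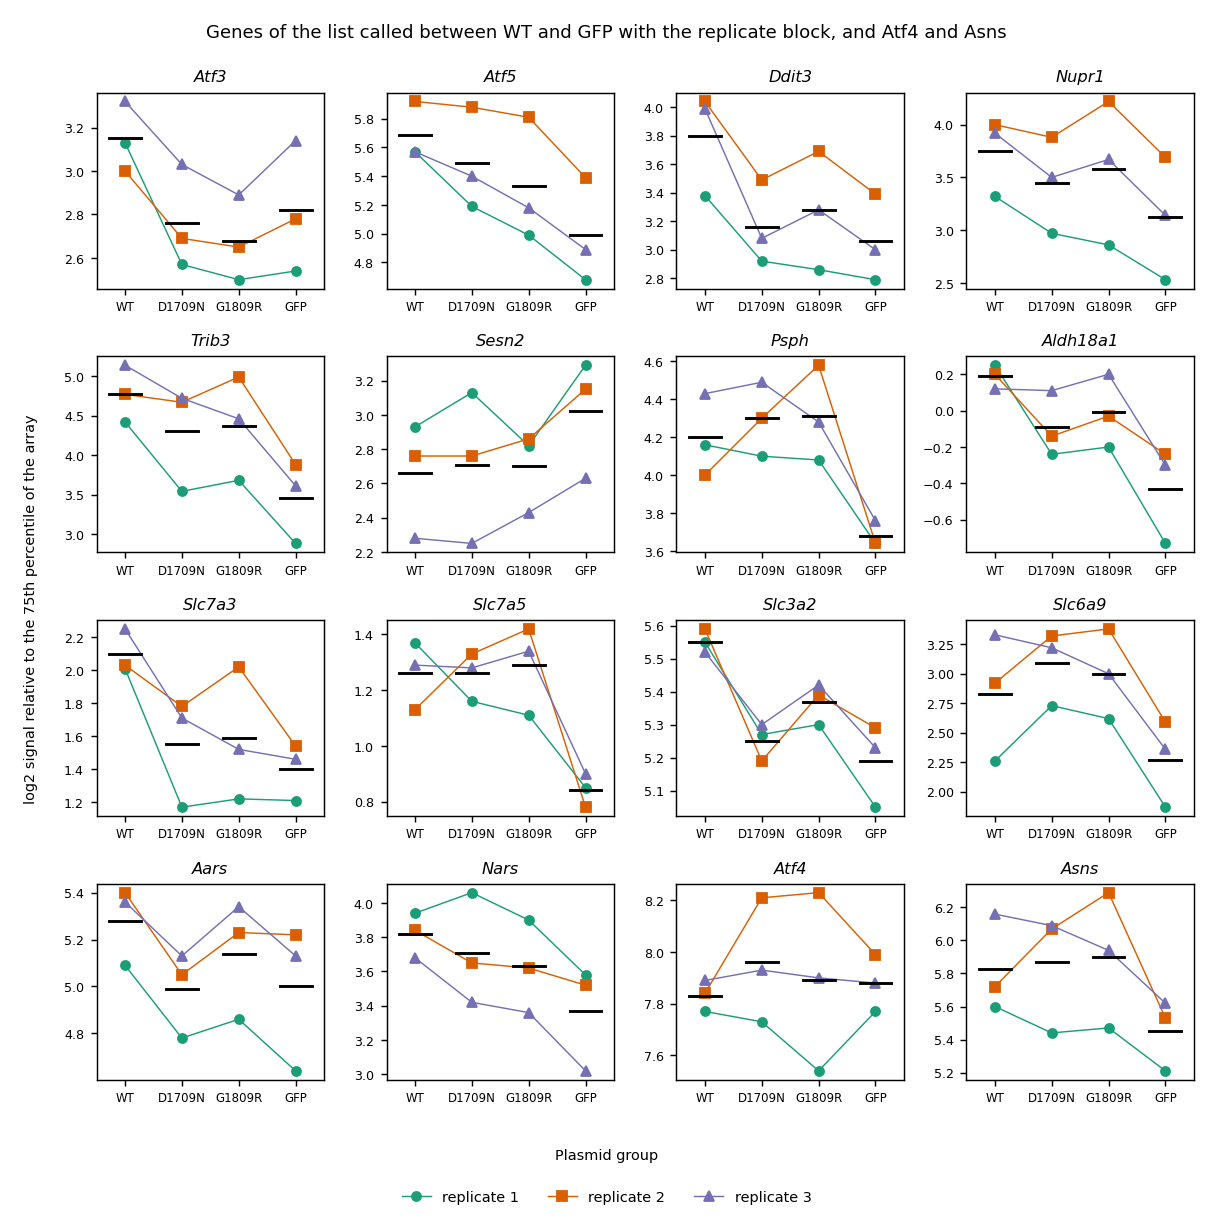
Level of each gene (y axis, log2 signal over the array's 75th percentile) in the 3 arrays of WT, D1709N, G1809R and GFP; lines join arrays of the same replicate number and bars are group means. The WT arrays lie above the GFP array of the same number in the panels of the 13 genes that rose with the block and below it in that of Sesn2, while Atf4 shows no such order.

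Of the 4 stress effectors, Trib3 rose and Sesn2 fell with WT in the fit with the block. Trib3, a pseudokinase that restrains ATF4 and AKT, had the largest difference of all 35 genes between WT and GFP. It stood at 4.42, 4.77 and 5.14 in WT, 3.54, 4.67 and 4.72 in D1709N, 3.68, 4.99 and 4.46 in G1809R and 2.88, 3.88 and 3.61 in GFP. WT did not overlap GFP, and within replicate numbers the WT excess was 1.54, 0.89 and 1.53. The rise of 1.32 (2.5-fold) had an SE of 0.42 and an adjusted p of 0.142 in limma without the block, an SE of 0.18 and 0.00242 with it, 0.00392 with the slide as the block, and at most 0.0151 in the 12 blocked fits without 1 array.

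Sesn2, a sestrin that senses leucine and restrains mTORC1 and is also a p53 target, ran against the others: 2.93, 2.76 and 2.28 in WT, 3.13, 2.76 and 2.25 in D1709N, 2.82, 2.86 and 2.43 in G1809R and 3.29, 3.15 and 2.63 in GFP. Its groups overlapped, but the WT minus GFP difference was nearly the same in each replicate number (-0.35, -0.39 and -0.35). The fall of 0.36 passed only with the block (limma adjusted p 0.0332; 0.651 without), and was lost without any one of the 3 WT or 3 GFP arrays (up to 0.0989) and with quantile normalization. Chac1, which degrades glutathione, and Vldlr, a lipoprotein receptor, passed in neither fit, with differences of -0.07 and -0.32.

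Of the 7 measured enzymes, Psph and Aldh18a1 rose with WT in the fit with the block. Aldh18a1, the first enzyme of proline synthesis from glutamate, lay at 0.25, 0.20 and 0.12 in WT, -0.24, -0.14 and 0.11 in D1709N, -0.20, -0.03 and 0.20 in G1809R and -0.73, -0.24 and -0.30 in GFP. WT and GFP did not overlap, and the mutant means were between them. The difference was 0.61 (1.53-fold; limma adjusted p 0.0818 without, 0.0119 with the block, and 0.0548 in the blocked fit without GFP replicate 1).

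Psph, the last enzyme of serine synthesis, was at 4.16, 4.0 and 4.43 in WT, 4.10, 4.30 and 4.49 in D1709N, 4.08, 4.58 and 4.28 in G1809R and 3.64, 3.64 and 3.76 in GFP. All 9 arrays with a DICER1 plasmid were above all 3 GFP arrays. The rise over GFP was 0.52 for WT, 0.62 for D1709N and 0.63 for G1809R (limma adjusted p 0.137, 0.341 and 0.412 without the block; 0.0305, 0.0423 and 0.0431 with it). Without any one GFP array, WT replicate 1 or WT replicate 3 the WT call was lost (up to 0.11); the D1709N call was lost without any D1709N or GFP array or G1809R replicates 1 or 3 (up to 0.161), and the G1809R call without any D1709N, G1809R or GFP array (up to 0.146).

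Asns, asparagine synthetase, showed 5.60, 5.72 and 6.16 in WT, 5.44, 6.07 and 6.09 in D1709N, 5.47, 6.29 and 5.94 in G1809R and 5.21, 5.53 and 5.62 in GFP. Each DICER1 plasmid group exceeded GFP within all 3 replicate numbers, by 0.37 (WT), 0.42 (D1709N) and 0.45 (G1809R) on average. None passed: the limma adjusted p was 0.613, 0.828 and 0.915 without the block and 0.111, 0.14 and 0.126 with it. Psat1 and Shmt2, of serine and glycine synthesis, had WT differences of -0.11 and 0.03 and passed in no comparison.

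Amino acid carriers gave 4 of the 13 rises with WT in the fit with the block: Slc7a3, Slc7a5, Slc3a2 and Slc6a9. Slc7a3, a carrier of arginine and other cationic amino acids, read 2.01, 2.03 and 2.25 in WT, 1.17, 1.78 and 1.71 in D1709N, 1.22, 2.02 and 1.52 in G1809R and 1.21, 1.54 and 1.46 in GFP. WT stood clear of GFP and of D1709N. The WT rise was 0.70 (1.62-fold; limma adjusted p 0.145 without, 0.0133 with the block, and 0.0565 in the blocked fit without GFP replicate 3).

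Slc7a5 and Slc3a2 encode the light and heavy chain of the leucine carrier LAT1. Slc7a5 was at 1.37, 1.13 and 1.29 in WT, 1.16, 1.33 and 1.28 in D1709N, 1.11, 1.42 and 1.34 in G1809R and 0.85, 0.78 and 0.90 in GFP, and Slc3a2 at 5.55, 5.59 and 5.52 in WT, 5.27, 5.19 and 5.30 in D1709N, 5.30, 5.39 and 5.42 in G1809R and 5.05, 5.29 and 5.23 in GFP. For Slc7a5 all 3 plasmid groups lay above GFP without overlap, and for Slc3a2 WT lay above all other arrays. With WT, Slc7a5 rose by 0.42 (limma adjusted p 0.0948 without and 0.0278 with the block) and Slc3a2 by 0.37 (0.0842 and 0.0157). The blocked call of Slc7a5 was lost without any GFP array or WT replicates 1 or 3 (up to 0.0981), and that of Slc3a2 without GFP replicates 1 or 3 or WT replicates 1 or 2 (up to 0.0702). The Slc7a5 differences of 0.41 for D1709N and 0.45 for G1809R from GFP did not pass (with the block 0.0662 and 0.0574).

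Slc6a9, the glycine carrier GlyT1, measured 2.26, 2.92 and 3.33 in WT, 2.73, 3.32 and 3.22 in D1709N, 2.62, 3.38 and 3.00 in G1809R and 1.87, 2.59 and 2.36 in GFP. The mutants lay wholly above GFP, while WT overlapped it. The rise was 0.56 for WT, 0.82 for D1709N and 0.73 for G1809R (limma adjusted p 0.465, 0.593 and 0.724 without, and 0.0301, 0.0241 and 0.0366 with the block). Leaving out any GFP array ended all 3 calls, any D1709N array ended both mutant calls, and any G1809R array ended the G1809R call (adjusted p up to 0.121, 0.104 and 0.134).

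Slc7a11, the cystine carrier xCT, varied most between arrays among the carriers, with group means of -4.16 in WT, -3.5 in D1709N, -3.85 in G1809R and -4.61 in GFP and SDs of 1.11, 1.36, 0.69 and 0.83 (n = 3 each). Its differences from GFP of 0.44, 1.11 and 0.76 passed in neither fit (with the block, limma adjusted p 0.312, 0.0613 and 0.168). Slc7a1 (-0.30 between WT and GFP) and Slc1a4 (0.02) did not pass either.

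Among the 6 tRNA synthetases, Aars and Nars, which charge alanine and asparagine tRNAs, rose with WT in the fit with the block. Nars stood at 3.94, 3.84 and 3.68 in WT, 4.06, 3.65 and 3.42 in D1709N, 3.90, 3.62 and 3.36 in G1809R and 3.58, 3.52 and 3.02 in GFP. Aars had 5.09, 5.40 and 5.36 in WT, 4.78, 5.05 and 5.13 in D1709N, 4.86, 5.23 and 5.34 in G1809R and 4.64, 5.22 and 5.13 in GFP. WT and GFP were separate for Nars and overlapped for Aars. The rise was 0.45 for Nars (limma adjusted p 0.376 without, 0.0168 with the block) and 0.29 for Aars (0.585 and 0.0439). Nars lost its call without GFP replicates 1 or 3 or WT replicates 2 or 3 (up to 0.0836), and Aars without any array other than GFP replicate 2 (up to 0.167) and with quantile normalization. Gars, Sars, Wars and Mars differed by -0.04, 0.31, 0.18 and -0.07 and did not pass.

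None of the 5 ER folding genes passed in any of the 6 comparisons, with or without the block. The chaperone Hspa5 (BiP) was at 6.56, 6.38 and 6.89 in WT, 6.68, 6.65 and 6.71 in D1709N, 6.67, 6.62 and 6.55 in G1809R and 6.42, 6.25 and 6.38 in GFP, which is 0.26, 0.33 and 0.26 above GFP (limma adjusted p with the block 0.153, 0.136 and 0.232). Xbp1, the factor spliced by IRE1, read 5.06, 4.75 and 5.24 in WT, 5.25, 5.18 and 5.19 in D1709N, 5.37, 5.09 and 4.98 in G1809R and 5.24, 4.84 and 4.98 in GFP. Its WT and GFP means were equal (0.00, with the block adjusted p 0.984), and an array of this kind does not show its splicing. Herpud1 (ER-associated degradation), Dnajb9 and Sdf2l1 (both cofactors of BiP) differed by -0.11, -0.02 and 0.11 between WT and GFP.

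**Figure D3:**
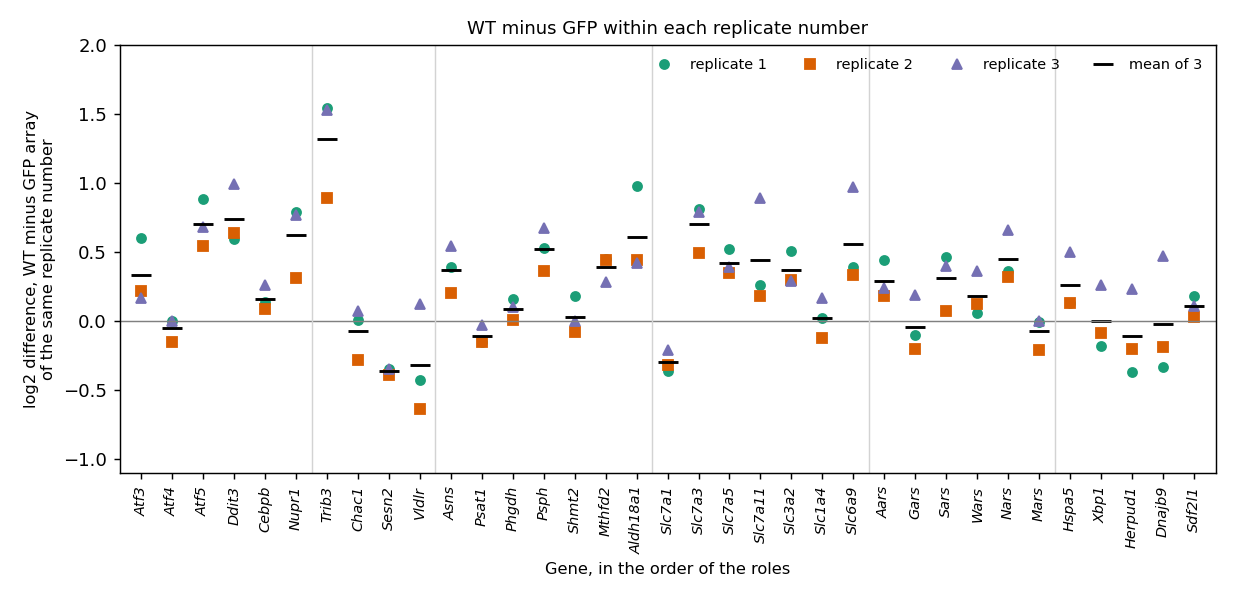
WT minus GFP (y axis, log2) within replicate numbers 1, 2 and 3 for each of the 35 genes, with black bars for the mean of 3. Trib3 sits highest, with 1.54, 0.89 and 1.53, and the ER folding genes at the right lie on both sides of 0.

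Interferon-stimulated genes were higher with WT over GFP, and most also with each mutant over GFP. With the block 15 of 16 measured were higher with WT, 4 with D1709N and 13 with G1809R, against 9.18%, 1.76% and 1.75% of all genes. Median differences from GFP were 3.27, 1.79 and 2.25. Without the block 3 were called with WT and 0 with either mutant. The summed level of these genes, in multiples of the array's 75th percentile, was 89.1 to 408 in WT (median 377), 64.5 to 232 in D1709N (median 68.3), 84.7 to 338 in G1809R (median 93.1) and 19.7 to 73.7 in GFP (median 20.2). Summed smooth muscle and fibroblast markers were 101 to 218 in WT, 60.9 to 180 in D1709N, 62.0 to 153 in G1809R and 75 to 209 in GFP. With the block 3 of the 10 were higher (30%) and 2 lower (20%) with WT against GFP, against 9.18% of all genes higher and 8.6% lower. With each mutant against GFP 4 were lower (40%), against 2.49% (D1709N) and 1.98% (G1809R) of all genes. The part of either in the ATF4 results was not tested. Fewer stressed cells and less RNA per cell cannot be told apart in such bulk samples.

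D1709N against GFP and G1809R against GFP ask the same of the RNase IIIb mutants, and they share the GFP arrays with the WT comparison. In the fit with the block both mutants had more Trib3, Psph, Slc6a9 and Mthfd2 mRNA than GFP, from 1.53-fold (Psph, D1709N) to 1.89-fold (Trib3, G1809R). Without the block 0 of 35 passed in either, where 0.0496% and 0.0124% of all genes did; 5 and 6 had an unadjusted p under 0.05, and the lowest adjusted p was 0.341 and 0.412. With the block 5 of 35 rose in each (14.3%) and 0 fell, against 1.76% of all genes higher and 2.49% lower for D1709N, and 1.75% higher and 1.98% lower for G1809R. Medians of the 35 were 0.19 and 0.18, against 0.03 and 0.05 over all genes, with 29 and 28 above 0. In the blocked fit that left out any one of the GFP arrays, or any one array of the mutant, 0 of the 35 were called for that mutant, and without G1809R replicate 1 or 3 the D1709N count was 2 or 3, and without a D1709N array the G1809R count was 1 or 2. With the slide as the block 0 were called for either mutant. None of these calls was kept without the filter on dim probes, when 36945 genes and transcripts were tested, and in the same setting 7 of the WT calls were kept: Atf5, Ddit3, Nupr1, Trib3, Aldh18a1, Slc7a3 and Slc3a2.

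Both mutants raised Trib3, Psph, Slc6a9 and Mthfd2 over GFP in the fit with the block, with Atf5 called for D1709N and Phgdh for G1809R in addition. Trib3 rose by 0.85 (1.81-fold) with D1709N and by 0.92 (1.89-fold) with G1809R (limma adjusted p 0.741 and 0.774 without, 0.0405 and 0.0365 with the block), although replicate 1 of each mutant lay below GFP replicate 2. These calls were lost without any GFP array, any array of the mutant itself, or, for D1709N, G1809R replicates 1 or 3 and, for G1809R, D1709N replicates 2 or 3 (up to 0.157 and 0.13).

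Mthfd2, a mitochondrial folate enzyme of one-carbon metabolism, was at 2.42, 2.73 and 2.77 in D1709N, 2.40, 2.80 and 2.69 in G1809R, 2.35, 2.20 and 2.55 in WT and 1.90, 1.76 and 2.27 in GFP. Neither mutant overlapped GFP. The rise was 0.66 (1.58-fold) for D1709N and 0.65 (1.57-fold) for G1809R (limma adjusted p 0.341 and 0.443 without, 0.0324 and 0.0367 with the block), and the 0.39 of WT did not pass (0.332 and 0.0752). The D1709N call was lost without any D1709N or GFP array or G1809R replicate 1 (up to 0.128), and that of G1809R without any D1709N, G1809R or GFP array (up to 0.13).

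Phgdh, the first enzyme of serine synthesis, read 2.98, 3.42 and 3.21 in D1709N, 3.17, 3.68 and 3.47 in G1809R, 2.85, 3.25 and 3.07 in WT and 2.70, 3.24 and 2.97 in GFP. G1809R was the highest group within each replicate number. It exceeded GFP by 0.48, 0.45 and 0.49 within the numbers, a rise of 0.47 (limma adjusted p 0.698 without, 0.0147 with the block) that was lost without any G1809R or GFP array (up to 0.0734). Atf5 rose by 0.51 with D1709N over GFP (0.764 and 0.028), lost without any D1709N or GFP array (up to 0.112).

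Against WT, the mutants address what the RNase IIIb changes take from active DICER1, and both comparisons share the WT arrays. In the fit with the block Ddit3 and Atf3 were lower with both mutants, the carriers Slc7a3 and Slc3a2 and the synthetase Aars with D1709N and Atf5 with G1809R, while Phgdh and Chac1 were higher with G1809R. Without the block 0 of 35 passed in each, where 1.66% (D1709N) and 1.64% (G1809R) of all genes did; 3 had an unadjusted p under 0.05 in each, and the lowest adjusted p was 0.191 and 0.334. With the block 0 rose and 5 fell with D1709N, against 7.12% of all genes higher and 8.42% lower, and 2 rose and 3 fell with G1809R, against 6.36% higher and 6.31% lower. The share that fell was 14.3% with D1709N and 8.57% with G1809R, so the G1809R counts lie near those of all genes. For D1709N the count of 5 dropped to 1 without any D1709N array or WT replicate 1, to 2 without G1809R replicate 1 or GFP replicate 3 and to 3 without G1809R replicate 3. For G1809R it dropped to 1 without G1809R replicate 1, to 2 without G1809R replicate 3 and to 3 without any D1709N array, GFP replicates 2 or 3 or WT replicate 1. With the slide as the block Ddit3 alone of the 35 was called, for D1709N (0.0491). Median differences were 0.04 and 0.03, against -0.01 and 0.01 over all genes. Beside these calls, 5 of 10 smooth muscle and fibroblast markers were lower and 2 higher with the block in each mutant against WT, with a median of -0.79 for both and of -0.74, -0.91 and -0.64 (D1709N) and -0.73, -0.91 and -0.80 (G1809R) within the replicate numbers. Interferon-stimulated genes had medians of -1.42 (D1709N, 6 of 16 lower with the block) and -0.87 (G1809R, 1 of 16) against WT. The part of either list in the calls was not tested.

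Atf3 and Ddit3 fell with both mutants in the fit with the block. Ddit3 fell by 0.64 with D1709N (limma adjusted p 0.327 without, 0.00608 with the block, at most 0.0318 without any 1 array) and by 0.53 with G1809R (0.498 and 0.0137, and up to 0.0635 without G1809R replicates 1 or 3, which ended the call). Within replicate numbers the Ddit3 difference was -0.45, -0.55 and -0.91 for D1709N and -0.51, -0.35 and -0.71 for G1809R. Atf3 fell by 0.39 with D1709N (0.423 and 0.0267, lost without any D1709N array or WT replicate 1, up to 0.0922) and by 0.47 with G1809R (0.334 and 0.0136, lost without G1809R replicates 1 or 3, up to 0.0562). G1809R and WT did not overlap for Atf3.

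The other falls with D1709N were in the carriers Slc7a3 and Slc3a2 and in Aars. Slc7a3 fell by 0.55 (limma adjusted p 0.312 without, 0.0388 with the block), Slc3a2 by 0.30 (0.191 and 0.0383) and Aars by 0.30 (0.583 and 0.044). Slc7a3 and Slc3a2 each lost the call in 9 of the 12 blocked fits without 1 array, any D1709N array among them (up to 0.128 and 0.155), and Aars without any array other than GFP replicates 1 and 2 (up to 0.164). For the carriers the other arrays concerned were GFP replicate 3, G1809R replicate 1 and WT replicate 1 for both, GFP replicates 1 and 2 and WT replicate 3 for Slc7a3, and G1809R replicates 2 and 3 and WT replicate 2 for Slc3a2.

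With G1809R, Atf5 fell by 0.36 (limma adjusted p 0.747 without, 0.0399 with the block) and lost that call without any array other than WT replicate 2 (up to 0.146). Phgdh rose by 0.38 over WT (1.3-fold; 0.492 and 0.00851), by 0.32, 0.44 and 0.39 within the replicate numbers, and kept its call in all 12 such fits (at most 0.0382), but not with the slide as the block (0.0882). Chac1 was at 4.63, 4.80 and 4.82 in G1809R, 4.33, 4.54 and 4.91 in D1709N, 3.76, 4.11 and 4.70 in WT and 3.75, 4.39 and 4.63 in GFP. G1809R exceeded WT by 0.87, 0.69 and 0.12 within the numbers, a rise of 0.56 (1.47-fold; 0.487 and 0.04) that ended in 9 of the 12 fits, those without any D1709N array, G1809R, GFP or WT replicate 2, G1809R or WT replicate 1, or GFP replicate 3 (up to 0.147), and with quantile normalization.

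Without the filter on dim probes only Ddit3 was called between D1709N and WT with the block, and Atf3, Ddit3 and Phgdh between G1809R and WT. D1709N against G1809R gave 0 calls among the 35 in either fit, where 0% of all genes were called in each; none of the 35 had an unadjusted p under 0.05 without the block. The median difference of the 35 was 0.01, the range -0.24 to 0.35, and an adjusted p above the threshold does not show that the mutants act alike.

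Across the 6 comparisons 17 of the 35 genes (48.6%) were called at least once with the block, against 26.5% of all genes tested. The 18 never called included Atf4, Asns and all 5 ER folding genes. For 10 genes a further probe was measured, and in the 11 calls with one it had the same sign. Sizes were close for Phgdh, Psph and Slc6a9 but not for Aars, where the further probe gave 1.25 for WT against GFP (0.29 on the reported probe) and -0.59 for D1709N against WT (-0.30), or for Slc7a5, where it gave 0.13 for WT against GFP (0.42). Outside the calls the sign could differ. For WT against GFP the further probe gave 0.03 for Vldlr (-0.32 on the reported probe) and 0.31 for Dnajb9 (-0.02). The remaining genes with a further probe kept their sign in that comparison. Of the 11 tested genes with the letters TGATGNAA in a window 4 rose with WT over GFP in the fit with the block (Atf3, Nupr1, Trib3 and Aars), and of the 20 with a window but without the letters 6 rose and 1 fell. Of all genes tested 9.18% rose and 8.6% fell in that fit. The median WT difference was 0.29 with the letters and 0.14 without.

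Upstream of ATF4, 13 genes for eIF2 kinases, eIF2 and eIF2B subunits and eIF2 phosphatase subunits were measured. With the block 3 rose (23.1%) and 1 fell (7.69%) with WT over GFP, against 9.18% of all genes higher and 8.6% lower. None of the 13 passed without the block (4 at an unadjusted p under 0.05), where 2.95% of all genes did. Eif2ak2, the double-stranded RNA kinase PKR and itself an interferon-stimulated gene, was at 3.12, 3.13 and 1.87 in WT, 1.80, 2.54 and 1.65 in D1709N, 1.96, 2.76 and 1.84 in G1809R and 0.75, 1.54 and 0.73 in GFP. No array with a DICER1 plasmid was below a GFP array. The rise was 1.70 (3.24-fold) with WT, 0.99 (1.99-fold) with D1709N and 1.18 (2.27-fold) with G1809R (limma adjusted p 0.0618, 0.64 and 0.597 without, 0.00168, 0.0407 and 0.0274 with the block). Eif2b3, a subunit of the eIF2 exchange factor, rose by 0.31 with WT (0.704 and 0.0421, lost without any array other than G1809R replicates 1 and 2, up to 0.163). The WT call of Eif2ak2 was kept in all 12 blocked fits without 1 array (at most 0.0109); that of D1709N was lost without any array other than WT replicates 1 and 3 (up to 0.153) and that of G1809R without any G1809R or GFP array (up to 0.107).

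Eif2ak3, the ER stress kinase PERK, ran the other way, with 0.54, -0.17 and 0.37 in WT, 0.99, 0.61 and 0.64 in D1709N, 1.16, 0.55 and 0.51 in G1809R and 1.17, 0.45 and 0.86 in GFP. WT was the lowest group in every replicate number. It fell by 0.58 with WT against GFP (limma adjusted p 0.325 without, 0.0139 with the block), and exceeded WT by 0.50 with D1709N (0.457 and 0.0292) and by 0.49 with G1809R (0.516 and 0.0334). Each call was lost without some arrays: the first without GFP replicates 1 or 3 or WT replicate 2 (up to 0.0675), the second without any D1709N array or WT replicates 1 or 2 (up to 0.119), the third in 7 of 12 fits, those without D1709N replicate 3, G1809R or WT replicates 1 or 2, or GFP replicates 1 or 3 (up to 0.13). Eif2ak4 (GCN2) also had its lowest mean in WT, -0.50 for WT against GFP, and Eif2ak1 (HRI) differed by 0.12; neither passed (with the block 0.06 and 0.511).

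Ppp1r15a, the stress-induced phosphatase subunit GADD34 that reverses eIF2 phosphorylation, followed the order of Ddit3, with 4.77, 4.48 and 4.99 in WT, 4.40, 4.05 and 4.47 in D1709N, 4.25, 4.27 and 4.46 in G1809R and 4.14, 4.05 and 4.26 in GFP. The WT arrays were above those of every other group. It rose by 0.60 with WT over GFP (1.51-fold; limma adjusted p 0.0837 without, 0.00375 with the block, at most 0.0244 without any 1 array). It fell by 0.44 with D1709N (0.24 and 0.0163; lost without D1709N replicates 2 or 3 or WT replicate 1, up to 0.0788) and by 0.42 with G1809R against WT (0.297 and 0.0204; lost without G1809R or WT replicates 1 or 3, up to 0.0864). The constitutive subunit Ppp1r15b (0.00 between WT and GFP) and the sensors Ern1 (IRE1, -0.21) and Atf6 (0.03) passed in no comparison. Ern1 and Atf6 belong to a list of 6 unfolded protein response sensors and proteases. With the block 1 of the 6 fell with D1709N against WT (16.7%, against 8.42% of all genes lower), and none was called in the other comparisons.

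Of 20 further ATF4 pathway genes, Fgf21 was the one called also without the block, in each mutant against WT. That is 5% of the 20 in each comparison, where 1.66% (D1709N) and 1.64% (G1809R) of all genes were called. Over both comparisons, 23 of the alternatives to the fit without the block lost this call. With WT against GFP Fgf21 moved against Trib3 and Ddit3, and with each mutant against WT it moved against Ddit3. Over GFP, Fgf21 and Trib3 were both higher with each mutant. Fgf21, a secreted metabolic hormone, read 0.08, 0.53 and 0.34 in D1709N, 0.13, 0.68 and -0.04 in G1809R, -2.18, -1.96 and -0.84 in WT and -1.13, -0.17 and -0.50 in GFP. Every array of both mutants was above every WT and GFP array, but the rise over GFP was called for neither mutant, with or without the block. Over WT it rose by 1.97 (3.93-fold, SE 0.37) with D1709N and by 1.92 (3.78-fold, SE 0.37) with G1809R, with limma adjusted p of 0.032 and 0.0341 without the block, 0.00493 and 0.00597 with it, and at most 0.0271 and 0.0346 in the blocked fits without 1 array. With WT it fell by 1.06 against GFP (0.176 without, 0.0444 with the block, lost without any array other than WT or G1809R replicate 3, up to 0.146).

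**Figure D4:**
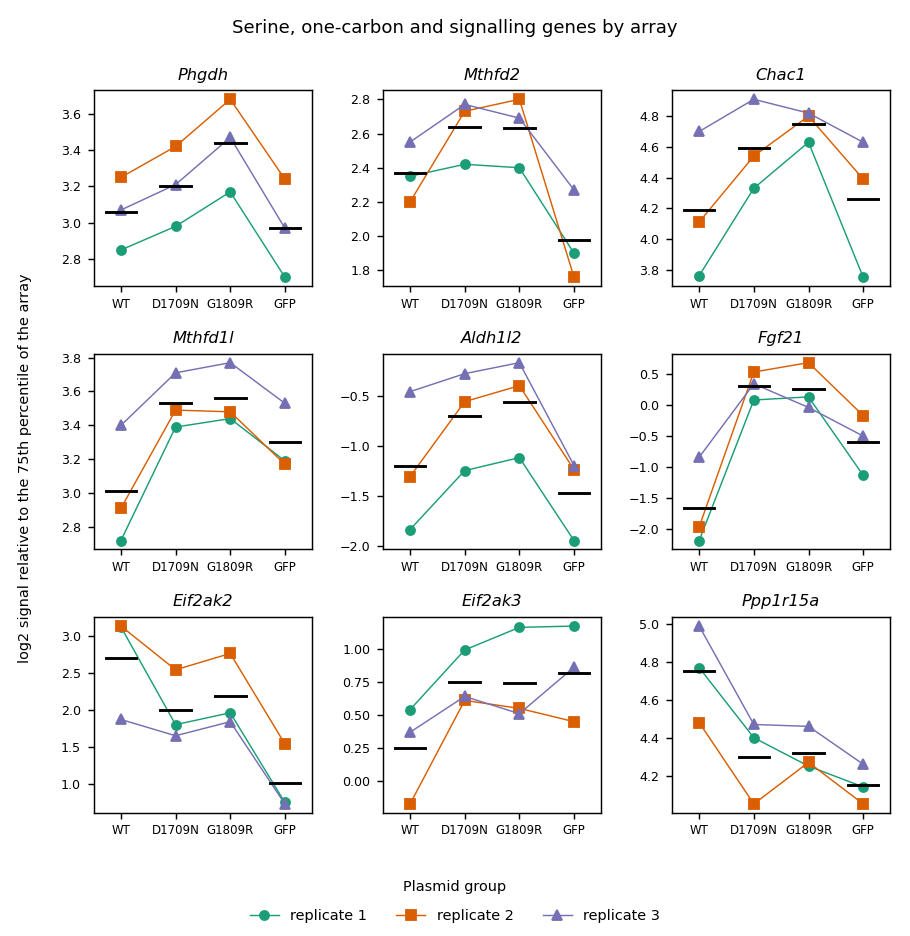
Level (y axis, log2 signal over the array's 75th percentile) of 9 genes in the 3 arrays of WT, D1709N, G1809R and GFP; lines join arrays of the same replicate number and bars are group means. Fgf21 and Mthfd1l have their lowest mean in WT, and Ppp1r15a and Eif2ak2 their highest.

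With the block, 6 of these 20 genes rose (30%) and 1 fell (5%) with D1709N against WT, against 7.12% of all genes higher and 8.42% lower. With G1809R against WT 5 rose (25%), against 6.36% of all genes higher. Over GFP 1 rose and 1 fell with WT (5% each, against 9.18% and 8.6% of all genes). With D1709N 1 rose and 1 fell over GFP (5% each, against 1.76% and 2.49%), and with G1809R 1 rose (5%, against 1.75%). Aldh1l2 and Mthfd1l, which like Mthfd2 are mitochondrial folate enzymes, were among the rises. Mthfd1l stood at 3.39, 3.49 and 3.71 in D1709N, 3.44, 3.48 and 3.77 in G1809R, 2.72, 2.91 and 3.40 in WT and 3.19, 3.17 and 3.53 in GFP. WT was the lowest in each replicate number. The rise over WT was 0.52 with D1709N and 0.55 with G1809R (limma adjusted p 0.25 and 0.247 without, 0.00738 and 0.00639 with the block), kept in all 12 fits without 1 array but not with the slide as the block (0.0904 and 0.0872); the G1809R value was picked after it was seen.

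Aldh1l2 measured -1.25, -0.56 and -0.28 in D1709N, -1.12, -0.40 and -0.17 in G1809R, -1.84, -1.31 and -0.46 in WT and -1.95, -1.24 and -1.20 in GFP. Replicate 1 was the lowest array of each group. It rose by 0.77 with D1709N and by 0.90 with G1809R over GFP (limma adjusted p 0.76 and 0.75 without, 0.0265 and 0.0182 with the block; lost without any GFP array or any array of the mutant, up to 0.103 and 0.0858), and by 0.64 with G1809R over WT (0.646 and 0.0204; lost without any G1809R array or WT replicates 1 or 2, up to 0.085). Cth, which makes cysteine from cystathionine, rose by 0.63 with D1709N and by 0.66 with G1809R over WT (0.223 and 0.221 without, 0.045 and 0.0428 with the block); both calls ended without any GFP array, D1709N replicates 1 or 2, G1809R replicate 3 or WT replicates 2 or 3, the first also without D1709N replicate 3 and the second without G1809R replicate 2 (up to 0.151 and 0.162). Eif4ebp1, a translation repressor, rose by 0.51 with WT over GFP (0.342 and 0.00398, at most 0.0256 without 1 array). Stc2, a secreted glycoprotein, fell by 0.56 with D1709N against GFP (0.285 and 0.0473), lost in 9 of 12 fits without 1 array: any D1709N or G1809R array, GFP replicates 1 or 2, or WT replicate 2 (up to 0.166).

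The remaining lists held few calls with WT over GFP, where 9.18% of all genes rose and 8.6% fell with the block. Of 14 further cytoplasmic tRNA synthetases 1 rose with WT over GFP in the fit with the block, Kars, by 0.33 (limma adjusted p 0.116 without, 0.0142 with the block, up to 0.0633 without GFP replicates 1 or 3 or WT replicate 1, which ended the call), and of 17 mitochondrial ones 0 did (2 at an unadjusted p under 0.05). Of 20 ER chaperone and degradation genes 0 rose and 1 fell, Ssr1, a subunit of the ER translocon complex, by 0.56 (0.0891 and 0.0239; lost without any GFP array or WT replicates 1 or 2, up to 0.102). With D1709N against WT the same fit gave 1 fall among the 14 (7.14%), 1 rise among the 17 (5.88%) and 3 rises among the 20 (15%). The shares of all genes there were 7.12% higher and 8.42% lower. With G1809R against WT the fit gave 0 in each list. The median difference between WT and GFP was 0.11 over the 14, -0.03 over the 17 and 0.00 over the 20, against 0.04 over all genes.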

How the data were processed

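The scanner files hold 1 intensity per spot, with 59305 non-control spots for 55681 probes on each array. Per the submitters' processing notes the authors made these intensities in Agilent Feature Extraction 11.0.1.1. The column used is the processed signal, background-corrected per the file headers. A deposited value table holds the authors' log2 values (column medians 9.4 to 9.42, one common maximum of 18.85, r with the scanner values 0.9948 to 0.9999); its centring and exact normalization are not given in the sources used here, and it served as an alternative. Spots of 1 probe were averaged, and each array's 75th percentile was subtracted on the log2 scale. Of 55681 probes, 33024 were kept, each detected well above background throughout some group; the probe with the highest mean stood for its gene, giving 24184 genes or transcripts, 14732 of them with a RefSeq symbol. Sums of marker levels are of linear signals over the same percentile.

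All 12 arrays entered 1 fit per setting in limma 3.58.1 (R 4.3.3; lmFit, contrasts, eBayes), with group alone as the design and the replicate number as a block beside it, Benjamini-Hochberg adjusted. The labels give replicates 1 to 3 in each group, and the deviations from group means of same-numbered arrays correlated at 0.6 to 0.85 in all 18 pairs, against -0.67 to 0.2 for different numbers, so the numbers were taken to pair the arrays. Deviations from a group mean cancel out within the group, so the low values for different numbers follow in part from the high ones. For replicate 1 the number is also the slide. On data simulated for WT against GFP over 24184 genes, the fit without the block called 38% of genes with a log2 change of 1 and 75% of those with a change of 2. The simulated noise was independent between arrays, unlike that of the same-numbered arrays here. The fit with the block was not simulated, so these shares do not describe its calls. The number of arrays limits the precision.

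The genes and lists were chosen with earlier results of these data known. Levels in every array are given for members called in either fit and for Atf4, Ddit3, Trib3, Asns, Hspa5 and Xbp1; of other lists, at most 3 called genes per comparison with the largest change are named, and always the eIF2 kinases, Ern1, Atf6 and the Ppp1r15 subunits. Alternatives were quantile normalization, normexp background, no filter, mean of probes, the value table, the slide as block, slide 2 alone, 2 groups alone and each array left out; those combined with the replicate block were chosen after seeing the data. Promoters are RefSeq's, build GRCm38.p6.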

Additional observations from a re-analysis of the deposited data

How the results depend on the processing

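Without the block, 0 of the 35 genes were called in each of the 6 comparisons under every setting run except the authors' value table (1 between WT and GFP) and the slide as block (7 between WT and GFP, 1 between D1709N and WT); the replicate block called 14, 5, 5, 5 and 5 in WT, D1709N and G1809R against GFP and D1709N and G1809R against WT. In the blocked fits that left out 1 array these became 4 to 12 (8 without WT replicate 1 or 3), 0 to 6, 0 to 6, 1 to 5 and 1 to 6, and without the filter, where more genes are tested, 7, 0, 0, 1 and 3. The median of the 35 ran, leaving out 1 array, from 0.13 to 0.28, 0.10 to 0.26, 0.10 to 0.26, -0.03 to 0.15, -0.12 to 0.09 and, for D1709N against G1809R, -0.10 to 0.10. The D1709N against GFP median was 0.09 with quantile normalization and with the value table and 0.22 over the mean of probes; that of G1809R against GFP was 0.15 in the first pair of settings and 0.16 with normexp. Over all genes, WT against GFP had 713 calls without the block, 4300 with it, 2112 with the slide, 206 without the filter and 3 on slide 2 alone.

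Small differences turned sign, and the cause was not tested. With D1709N Atf4 was -0.15 from GFP under quantile normalization and the value table and -0.01 over the mean of probes, and with G1809R -0.11, -0.10 and -0.08, and -0.03 with normexp, each also with the block. Leaving out 1 array gave Atf4 0.01 and, with the block, 0.00 and 0.06 (WT), -0.05 to 0.19 (D1709N), and -0.16 to 0.19, with -0.05 among them, or, with the block, -0.10 and -0.03 (G1809R), all from GFP. Ddit3 ran from -0.06 to 0.27 (D1709N against GFP), with -0.06 and -0.03 without D1709N replicate 2 or GFP replicate 1. Xbp1 (WT against GFP) was 0.03 with quantile normalization, 0.02 in the value table, 0.08 on slide 2, 0.11 and 0.13 without GFP replicate 1 or WT replicate 2, and 0.05 to 0.09 in blocked fits without 1 array.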
